A study of Mus musculus with 5 samples.

Results

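The 10 genes described here store, import, export and sense iron in the cell. They are the ferritin subunits Fth1 and Ftl1, the transferrin receptor Tfrc, the iron transporters Slc40a1, Slc11a1 and Slc11a2, the heme-degrading enzyme Hmox1, the iron regulatory proteins Aco1 and Ireb2, and the ferritin cargo receptor Ncoa4. They were taken by symbol, and all 10 were among the 27179 gene identifiers of the count table. Of the 10, 8 were among the 9988 genes with enough counts to be tested, and Slc40a1 and Slc11a1 were not. The cells were Langerhans cells, which are resident phagocytes and antigen-presenting cells of the epidermis, taken in purified form out of skin. The mice were of the C57BL/6 background and 1 week old. The groups were Suz12 cKO, a conditional knockout of a core subunit of Polycomb repressive complex 2 (3 biological replicates), and wild type, WT (2 biological replicates). Each library came from polyadenylated RNA of 5000 cells. The sources used here name neither the Cre driver nor the sex of the mice.

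Iron enters most cells bound to transferrin through Tfrc and leaves endosomes through Slc11a2, also called DMT1, while Slc11a1, or NRAMP1, pumps metal ions out of the phagosomes of macrophages. Spare iron is held in ferritin, a hollow shell of heavy (Fth1) and light (Ftl1) chains, and is released again when Ncoa4 carries ferritin to the lysosome. Slc40a1, ferroportin, is the known iron exporter of mammalian cells, and Hmox1 frees iron from heme. When iron is scarce, Aco1 (IRP1) and Ireb2 (IRP2) bind stem-loops called iron-responsive elements. Binding near the 5′ end of a transcript blocks its translation, as in ferritin, and binding in the 3′ untranslated region protects the transcript from decay, as in Tfrc.

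The stem-loop letters were searched in the untranslated regions of GENCODE vM21 transcripts (GRCm38, the assembly of mm10), because they divide the 10 genes into those with the letters on the 5′ side, those with them on the 3′ side, and the rest. The search took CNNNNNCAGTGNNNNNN on the sense strand, with the 5 bases before the CAGTGN loop able to pair with the 5 after it, G with T pairs included. In the lines that follow, the loop is in capitals within 30 bases of transcript, written as DNA from 5′ to 3′.
Fth1, 5′ untranslated region, chr19:9982732-9982761, plus strand: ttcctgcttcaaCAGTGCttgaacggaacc
Ftl1, 5′ untranslated region, chr7:45459778-45459807, minus strand: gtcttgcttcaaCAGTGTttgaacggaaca
Slc40a1, 5′ untranslated region, chr1:45925464-45925493, minus strand: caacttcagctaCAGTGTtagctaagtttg
Tfrc, 3′ untranslated region, chr16:32631219-32631248, plus strand: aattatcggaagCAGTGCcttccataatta
Tfrc, 3′ untranslated region, chr16:32631598-32631627, plus strand: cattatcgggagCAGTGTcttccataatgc
Tfrc, 3′ untranslated region, chr16:32631663-32631692, plus strand: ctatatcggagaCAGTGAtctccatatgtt
Tfrc, 3′ untranslated region, chr16:32631710-32631739, plus strand: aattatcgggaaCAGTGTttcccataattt
Of 21901 protein-coding genes, 31 (0.142%) held such letters in a 5′ untranslated region and 129 (0.589%) in a 3′ one. The other 6 iron genes had no match under this pattern, which allows no bulge on the 3′ side of the stem. An element with such a bulge, or with a loop other than CAGTGN, would be missed. These genes, Slc11a2 among them, are therefore not shown to lack an element. For the same reason, the genes with a match may hold more elements than are listed. A match describes the letters only, and transcript counts do not show whether a protein was bound there.

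**Figure D1:**
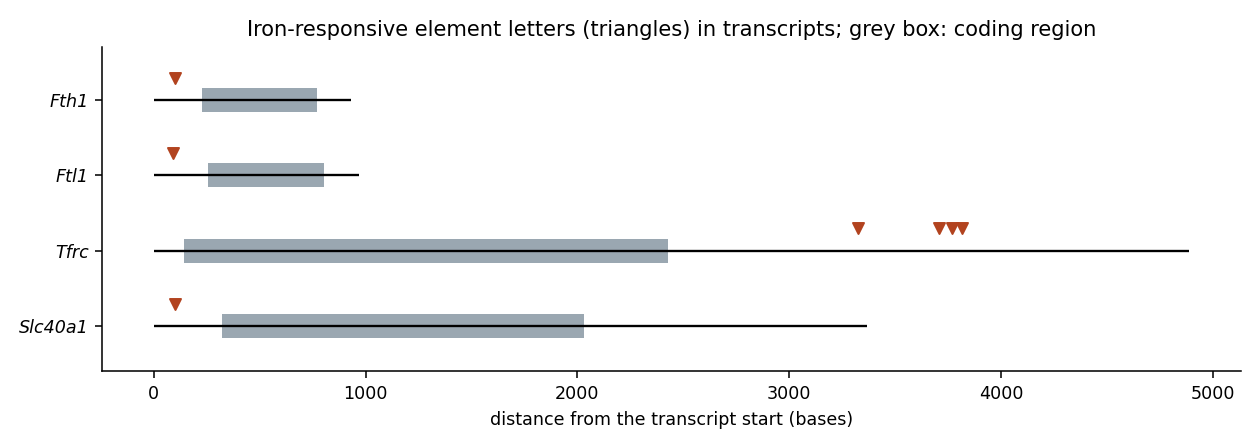
Positions of the iron-responsive element letters along 1 transcript each of Fth1, Ftl1, Tfrc and Slc40a1, in bases from the transcript start. The line is the transcript, the grey box the coding region and each triangle the loop of a match: Fth1, Ftl1 and Slc40a1 have 1 match before the coding region, and Tfrc has 4 after it.

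Counts assigned to genes ranged from 12090062 to 25725900 per library. Levels are given as TMM-normalised CPM (counts per 1e+06), which are scaled so that most genes match between libraries; a gene with no count could still lie at up to 0.106 CPM in the deepest library and 0.258 CPM in the shallowest, the value of 3 counts. Floors and counting intervals hold counting error alone, since the labels mention no molecular identifiers that would tell amplified copies apart. Folds given as at least some value pool the counts of a group and leave out the spread between libraries. Suz12 had 0, 0 and 7 counts in cKO replicates 1 to 3, against 88 and 39 counts in WT replicates 1 and 2, in the direction of the genotype labels. Eif2s3y, a gene of the Y chromosome, lay at 80.7, 61 and 104.8 CPM in cKO replicates 1 to 3, against 1.38 and 0 CPM in WT. A difference in sex between the groups cannot be told apart from genotype here, and its part was not tested. All 15 genes of a Langerhans cell marker list had counts, 14 of them in every library, although the source label of all 5 libraries names alveolar macrophages; Cd74, the most abundant, lay at 35600 to 46980 CPM in cKO and 32490 and 44640 CPM in WT. T cell genes (11) summed to 249.8 to 783 CPM in cKO and 505 and 665 CPM in WT, and fibroblast and endothelial genes (10) to 9.76 to 211 CPM in cKO and 21.2 and 109 CPM in WT. Genes at low levels came and went between libraries: 3682 tested genes (36.9%) lay at 10 CPM or more in at least 1 library and under 1 CPM in another, and so did 5 of the 8 tested iron genes.

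Ferritin dominated the iron transcripts of these cells. Per kilobase of gene length (RPKM), Fth1 averaged 8420 RPKM in cKO and 10460 RPKM in WT, and ranked 7 among the 9988 tested genes by its mean over the 5 libraries. Ftl1 averaged 1770 RPKM in cKO and 1902 RPKM in WT, and ranked 65. Every other iron gene lay far below, from Ncoa4 at 17.5 RPKM in cKO and 8.79 RPKM in WT down to Slc11a1, which had no count in any library. Together Fth1 and Ftl1 took 0.953%, 0.772% and 0.928% of all gene counts in cKO replicates 1 to 3, against 1.14% and 1.05% in WT replicates 1 and 2. Their 95% Wilson intervals ran from 0.768% to 0.775% in the lowest library, cKO replicate 2, and from 1.139% to 1.149% in the highest, WT replicate 1.

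Fth1 carries the ferroxidase site that oxidises iron as it enters the shell (chromosome 19, 9980600 to 9985111). It lay at 8255, 5699 and 7922 CPM in cKO replicates 1 to 3, against 9288 and 8825 CPM in WT replicates 1 and 2. All 3 cKO libraries lay below both WT libraries, with the widest gap in cKO replicate 2. The log2 fold change was -0.31 ± 0.26 (SE), with a 95% interval from -0.94 to 0.31, so Fth1 did not pass (edgeR quasi-likelihood test, adjusted p = 0.999). The interval spans 0.522 to 1.24 times the WT level, and without cKO replicate 2 the log2 fold change was -0.16. The groups also stayed apart with library totals, RLE factors and upper-quartile factors as the scaling. In this bulk RNA, fewer cells with much ferritin and less ferritin RNA per cell cannot be told apart. Macrophages are rich in ferritin, and a list of 16 macrophage and monocyte genes was also read. Of its 12 tested genes, 9 were lower in cKO (median log2 fold change -0.79), and 4 lay below WT in every cKO library, against 10.2% of all tested genes. None of its genes lay above WT in every cKO library. The list summed to 1709, 3235 and 2640 CPM in cKO replicates 1 to 3 and 4619 and 3057 CPM in WT, with no count for Mertk, Lyve1 and Folr2. By library, cKO replicate 2 had the lowest Fth1 level but the highest cKO sum, above that of WT replicate 2. Cd14, the most abundant gene of the list, lay at 612, 1701 and 1330 CPM in cKO and 1275 and 1097 CPM in WT. It made up much of the sum of cKO replicate 2. Lyz2, also of the list and chosen after its values were seen, lay at 527.7, 639.8 and 499.5 CPM in cKO. In WT it lay at 2101 and 1081 CPM. The part of the list in the Fth1 values was not tested.

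Ftl1, the light chain that helps iron mineralise inside the shell (chromosome 7, 45457944 to 45459886), lay at 2111, 1328 and 1713 CPM in cKO replicates 1 to 3, against 2008 and 1682 CPM in WT. The groups overlapped, and cKO replicate 1 was the highest of the 5 libraries. The log2 fold change was -0.10 ± 0.29 (SE), with a 95% interval from -0.80 to 0.60 (edgeR adjusted p = 0.999), and it turned to 0.050 without cKO replicate 2 and 0.034 without WT replicate 1. The table also holds Ftl1-ps2, annotated as a processed pseudogene of Ftl1, at 486, 274 and 391 CPM in cKO and 436 and 424 CPM in WT. Its counts came to 0.206 to 0.230 of those of Ftl1 in the cKO libraries and to 0.217 and 0.252 in WT, and since the sources used here do not say how reads matching both were counted, the level of Ftl1 is uncertain. With the counts of both summed, the log2 fold change was -0.12.

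The chains were compared within each library, where the scaling cancels. Per base of gene length, Fth1 exceeded Ftl1 by 4.38, 4.81 and 5.18 times in cKO replicates 1 to 3, against 5.18 and 5.88 times in WT replicates 1 and 2. The highest cKO library and the lower WT library had almost the same ratio, so the groups met at their edge. The ratio shifts with how Ftl1-ps2 is counted. With its counts added to those of Ftl1, and without the division by length, Fth1 was 3.178, 3.559 and 3.765 times the sum in cKO. In WT it was 3.801 and 4.19 times the sum. Both chains varied little between libraries: the highest library exceeded the lowest 1.63 times for Fth1 and 1.59 times for Ftl1, and the SD of log2(CPM + 1) over the 5 libraries was 0.277 and 0.262, against a median of 1.15 over all tested genes. Many of those genes were scarce and came and went between libraries, so the median is no yardstick for genes this abundant.

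**Figure D2:**
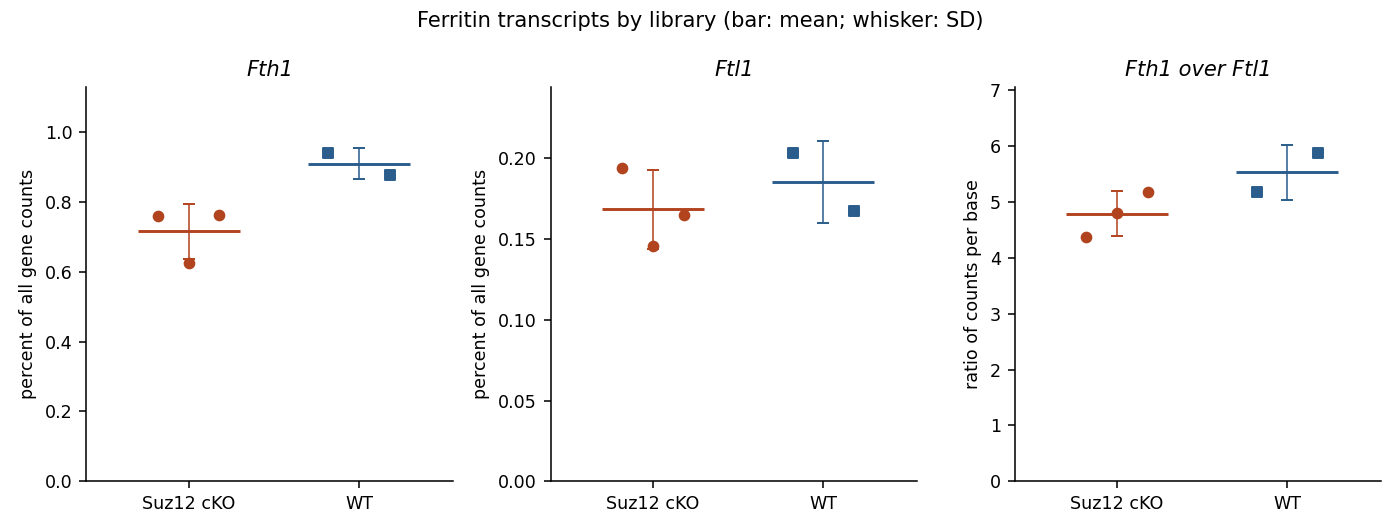
Share of all gene counts taken by Fth1 and Ftl1, in percent, and the ratio of their counts per base of gene length, in 3 Suz12 cKO (left) and 2 WT (right) libraries. Points are libraries, bars means and whiskers the SD; the cKO libraries lie below both WT libraries for Fth1 and overlap them for Ftl1.

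Ncoa4, the receptor that delivers ferritin to autophagosomes (chromosome 14, 32159879 to 32179855), lay at 61.4, 40.2 and 86.4 CPM in cKO replicates 1 to 3, against 46.3 and 16.6 CPM in WT. The groups overlapped through cKO replicate 2 and WT replicate 1. The log2 fold change was 0.995 ± 0.71 (SE), with a 95% interval from -0.71 to 2.70, which did not pass (edgeR adjusted p = 0.999). WT replicate 2 set much of its size: without that library the log2 fold change was 0.43, and without WT replicate 1 it was 1.92.

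Hmox1, heme oxygenase, an enzyme induced by heme and oxidative stress (chromosome 8, 75093618 to 75100593), lay at 5.69, 14.4 and 14.7 CPM in cKO replicates 1 to 3, against 0.635 and 3.95 CPM in WT. Every cKO library lay above both WT libraries, and the lowest value, in WT replicate 1, rested on 12 counts. The log2 fold change was 2.34 ± 2.34 (SE), with a 95% interval from -3.20 to 7.87, and Hmox1 did not pass (edgeR adjusted p = 0.999). It was the only member whose cKO libraries all lay above WT, and the order was the same under the other 3 scalings. The size rested on single WT libraries: the log2 fold change was 1.56 without WT replicate 1 and 4.19 without WT replicate 2. The sum of a 21-gene keratinocyte list stood in a similar order, at 1202 to 1425 CPM in cKO and 413 and 1043 CPM in WT. Of its 17 tested genes, 14 were higher in cKO (median log2 fold change 0.88), against 52.5% of all tested genes. All cKO libraries lay above WT for 5 of the 17, against 8.87% of all tested genes, and below WT for 0. Krt14, the most abundant, lay at 134, 215 and 144 CPM in cKO and 89.5 and 235 CPM in WT, and Flg had no count. The part of keratinocyte transcripts in the Hmox1 values was not tested. Of the macrophage and monocyte genes described beside Fth1, 3 of 12 tested were higher in cKO.

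**Figure D3:**
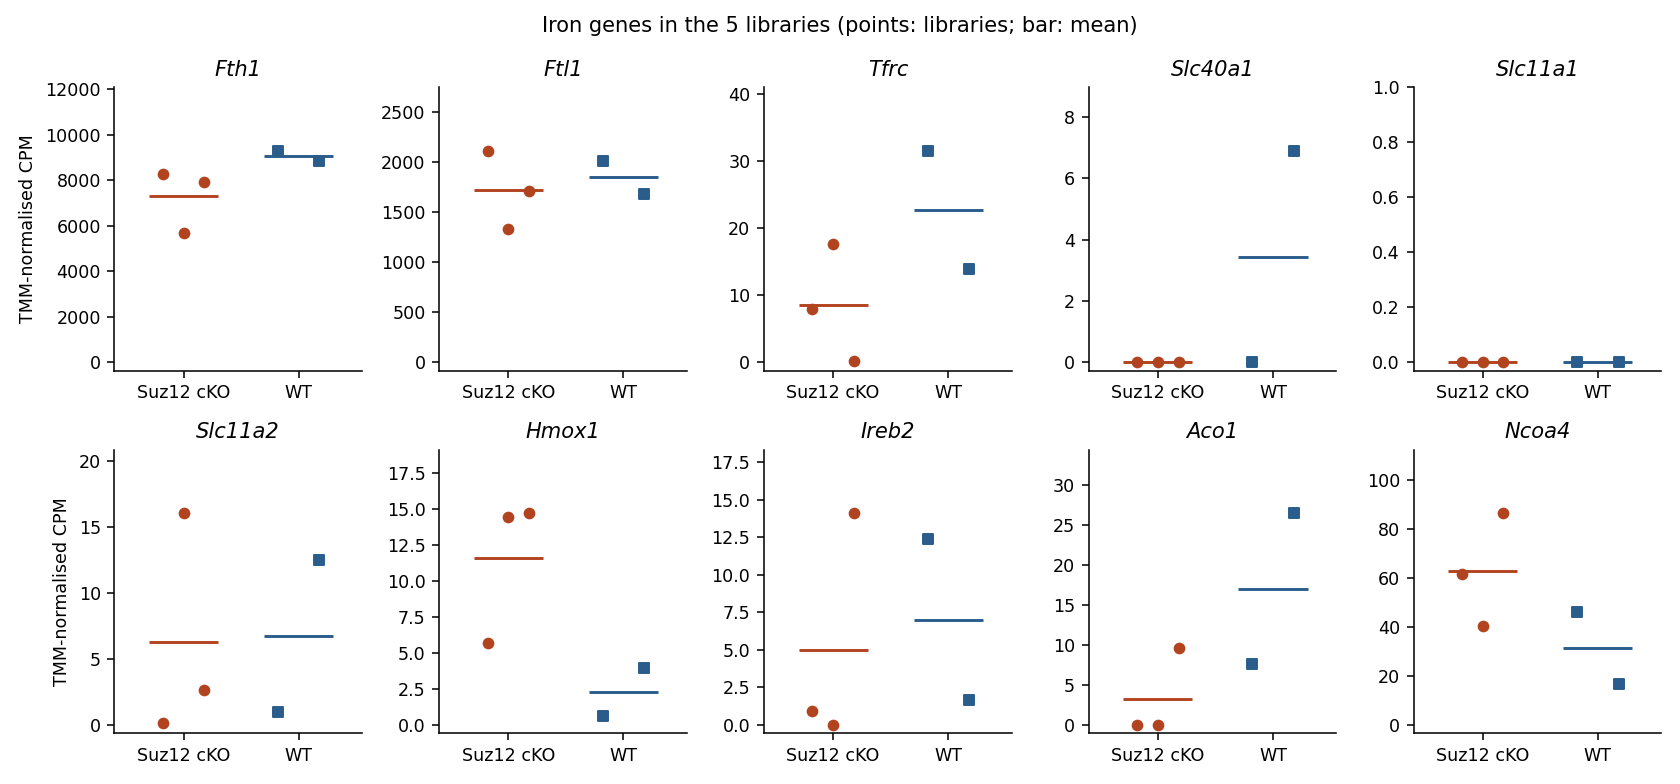
TMM-normalised CPM of the 10 iron genes in 3 Suz12 cKO (left, circles) and 2 WT (right, squares) libraries, on linear axes that differ between panels; bars are group means. The cKO libraries all lie below WT for Fth1 and all above WT for Hmox1, and the other genes overlap or are at 0.

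Tfrc, which takes up transferrin-bound iron (chromosome 16, 32608896 to 32632794), lay at 8.01, 17.6 and 0.172 CPM in cKO replicates 1 to 3, against 31.5 and 14.0 CPM in WT. The groups overlapped, and cKO replicate 3 held 2 counts, which is under the floor of 3. For Tfrc the log2 fold change was -1.40 ± 1.92 (SE), with a 95% interval from -5.98 to 3.18 (edgeR adjusted p = 0.999), and it was -2.48 without cKO replicate 2 and -0.69 without WT replicate 1. Tfrc is abundant in red cell precursors, so their markers were summed: 8 genes gave 14.6, 34.8 and 386 CPM in cKO replicates 1 to 3 and 18.6 and 238 CPM in WT, with Slc4a1, Epb42 and Klf1 among those at 0 in every library. Its part in the Tfrc values was not tested.

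Slc11a2, the endosomal iron transporter (chromosome 15, 100387898 to 100424209), lay at 0.125, 16.04 and 2.66 CPM in cKO replicates 1 to 3, against 1.01 and 12.5 CPM in WT. Each group held 1 library above 10 CPM and at least 1 library near or under 1 CPM, so the spread within a genotype exceeded any difference between them. Its log2 fold change was -0.10 ± 2.66 (SE), and its sign was not stable when single libraries were left out. Slc11a1, the phagosomal transporter (chromosome 1, 74375014 to 74386057), had no count in any library, and its level could be up to the floor of each.

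Slc40a1, ferroportin (chromosome 1, 45908070 to 45926532), had no count in the 3 cKO libraries or in WT replicate 1, and 117 counts, or 6.90 CPM (95% exact Poisson interval 5.70 to 8.27), in WT replicate 2. Over the groups it was at least 60.8-fold lower in cKO with the floor set at 3 counts over the group, but 1 library carries that difference. In WT replicate 2 the sum of 7 melanocyte genes was also the highest of the 5 libraries, at 33.1 to 145 CPM in cKO and 39.8 and 431 CPM in WT replicates 1 and 2. The melanocyte, red cell and fibroblast and endothelial sums were all highest in cKO replicate 3 and WT replicate 2, while each lay under 50 CPM in the other 3 libraries. Slc40a1 had no count in cKO replicate 3. The part of these transcripts in the Slc40a1 value was not tested.

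The iron sensors were scarce. Aco1 (chromosome 4, 40143265 to 40199009), which is a cytosolic aconitase when it holds an iron-sulfur cluster, lay at 0.0626, 0.0354 and 9.62 CPM in cKO replicates 1 to 3, against 7.62 and 26.4 CPM in WT. The first 2 of these cKO values are 1 count each, and cKO replicate 3 lay above WT replicate 1. For Aco1 the log2 fold change was -2.39 ± 2.74 (SE), with a 95% interval from -8.93 to 4.14. Without cKO replicate 3 the fitted value was -8.29, which is no measured fold, since the cKO group then held 1 count per library. The edgeR adjusted p of Aco1 in that fit, 0.812, still did not pass. Ireb2 (chromosome 9, 54862658 to 54912534), which is degraded when iron is plentiful, lay at 0.939, 0 and 14.1 CPM in cKO replicates 1 to 3, against 12.4 and 1.65 CPM in WT. The highest library was cKO replicate 3, just above WT replicate 1, and the log2 fold change was -0.49 ± 3.03 (SE). For Ireb2 the sign turned with single libraries, to 0.099 without cKO replicate 2 and 1.60 without WT replicate 1, and the value was -3.92 without cKO replicate 3. Both sensors were present in cKO replicate 3, with Aco1 at 9.62 and Ireb2 at 14.1 CPM, and in WT replicate 1, at 7.62 and 12.4 CPM. They were also both present in WT replicate 2, with Aco1 at 26.4 and Ireb2 at 1.65 CPM.

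Over the whole set, 2 of the 8 tested genes were higher and 6 lower in cKO, with a median log2 fold change of -0.21, against 52.5% higher, 47.5% lower and a median of 0.06 over all tested genes. edgeR called 0 of the 8, and 0 of 9988 genes (0%) at an adjusted p of 0.05. None of the 8 had an unadjusted p under 0.05, against 4.15% of all tested genes. DESeq2 and limma-voom also called 0 of the 8, while DESeq2 called 191 genes in all (2.12% of the 9019 that it gave an adjusted p). All cKO libraries lay above WT for 1 of the 8, against 8.87% of all tested genes, and below WT for 1 of the 8, against 10.2%. These shares are near the background. Each p-value rests on the spread between these 5 libraries alone. The interval of Tfrc ran from 0.0159 to 9.04 times the WT level, and those of Slc11a2, Hmox1, Ireb2 and Aco1 were wider still, so even large changes of these scarce genes were not detectable.

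**Figure D4:**
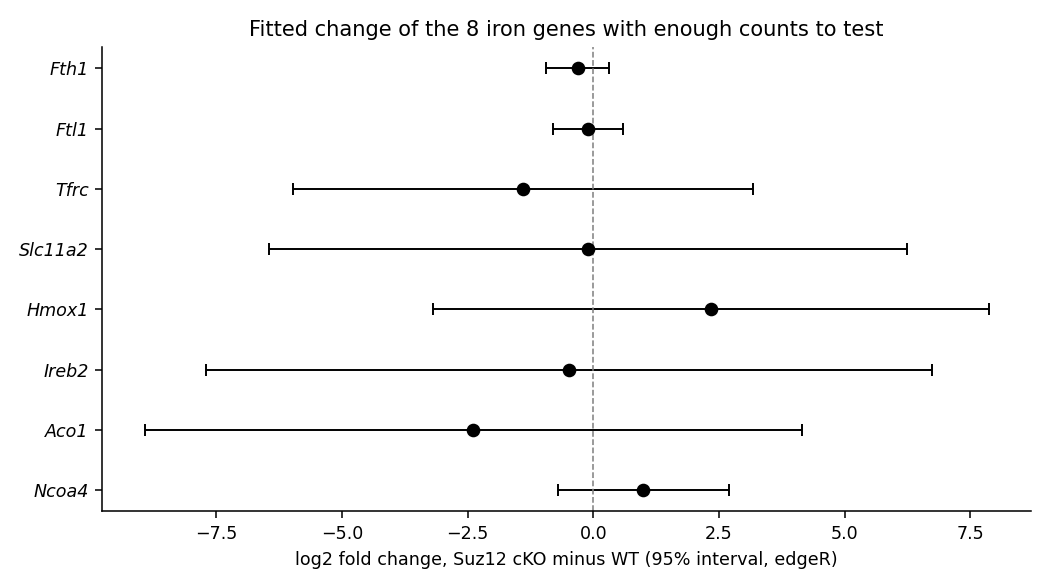
Fitted log2 fold change, Suz12 cKO minus WT, of the 8 tested iron genes with 95% intervals from edgeR. Every interval spans 0; those of Fth1 and Ftl1 are the narrowest, at -0.94 to 0.31 and -0.80 to 0.60, and that of Ireb2 reaches from -7.71 to 6.74.

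The sample titles come in 2 styles, and values were also read within each. Among titles with the short form, Fth1 lay at 8255 and 5699 CPM in cKO against 9288 CPM in WT, and among those with the long form at 7922 CPM in cKO against 8825 CPM in WT. Hmox1 lay at 5.69 and 14.4 CPM in cKO against 0.635 CPM in WT with the short form, and at 14.7 CPM in cKO against 3.95 CPM in WT with the long form. For both genes all cKO libraries lay on the same side of both WT libraries. Their direction within each style was therefore fixed in advance, and it says nothing about the part of style. The long form belongs to cKO replicate 3 and WT replicate 2, the pair with the highest melanocyte, red cell and fibroblast and endothelial sums.

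Profiles over the 5 libraries were compared by the root mean square difference of centred log2(CPM + 1), over tested genes that averaged 10 CPM or more. Among the nearest to Fth1 of 6358 genes were Taf9 and Sec61b, at 0.051 and 0.062. Ftl1, its partner in the shell, ranked 56, at 0.140. Nearest to Hmox1 among 6359 genes were Daxx, Nudcd3 and Fubp3, at 0.223 to 0.284, and nearest to Tfrc among 6358 were Srrt, Epb41 and Pdcd2l, at 0.125 to 0.289. With 5 libraries and this many genes, such nearness describes the profiles and no more.

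Other genes of iron handling ranged from moderate levels to none. Of 24 genes for further uptake, export and iron chaperones, 10 were tested, 2 higher and 8 lower in cKO (median log2 fold change -0.26), and 11 had no count in any library, among them the ferrireductase genes Steap1, Steap2, Steap4 and Cybrd1, the transporter gene Slc39a8 and the ferroxidase gene Cp. The zinc and iron importer gene Slc39a14 lay at 12.3, 4.82 and 5.58 CPM in cKO replicates 1 to 3 and had no count in WT, at least 85.1-fold higher in cKO with the floor set at 3 counts over the group. It did not pass edgeR (unadjusted p = 0.0388, adjusted p = 0.968) and did pass DESeq2 (adjusted p = 0.0431). The steadier genes of this list included Pcbp1, an iron chaperone, at 89.5, 129.8 and 204 CPM in cKO and 176 and 137 CPM in WT (log2 fold change -0.15 ± 0.44, SE), and Trf, transferrin, at 48.2, 141 and 49.1 CPM in cKO and 101.6 and 81.5 CPM in WT (-0.20 ± 0.60, SE); both were chosen after their values were seen. Hfe, which binds the transferrin receptor, lay at 15.5, 88.1 and 38.6 CPM in cKO and 185 and 47.5 CPM in WT. Mcoln1, an ion channel of the lysosome that passes iron, lay at 0.939, 31.5 and 13.4 CPM in cKO and 26.04 and 25.94 CPM in WT.

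Of the heme genes, Fech, ferrochelatase, which inserts iron into heme, had no count in the 3 cKO libraries, against 319 and 316 counts (16.9 and 18.6 CPM) in WT replicates 1 and 2. That made it at least 329.8-fold lower in cKO with the floor set at 3 counts over the group. It did not pass edgeR (unadjusted p = 0.0204, adjusted p = 0.968) and did pass DESeq2 (adjusted p = 0.0087). Slc46a1, which carries folate and heme, had 1 count over the cKO libraries, against 170 and 243 counts in WT. The ratio of cKO to WT was 0.00155, with a counting interval from 3.92e-05 to 0.00871, and it did not pass (edgeR adjusted p = 0.968).

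Flvcr1, a heme exporter, had 361, 0 and 102 counts in cKO replicates 1 to 3 and none in WT, at least 99.0-fold higher in cKO by the same floor, with cKO replicate 2 at 0. Bach1, the repressor that heme lifts off the Hmox1 gene, lay at 14.6, 42.3 and 34.4 CPM in cKO and 7.83 and 11.3 CPM in WT. All 3 cKO libraries were above WT, as for Hmox1, and the log2 fold change of 1.67 ± 1.13 (SE) did not pass (edgeR adjusted p = 0.999). Alad and Alas1, both early enzymes of heme synthesis, lay at 30.3, 17.1 and 25.2 CPM in cKO against 55.3 and 45.4 CPM in WT, and at 27.8, 34.5 and 59.8 CPM in cKO against 74.2 and 35.3 CPM in WT. In all, 8 of 11 heme handling genes were tested, 4 higher and 4 lower (median 0.05), and 7 of 9 heme synthesis genes, 2 higher and 5 lower (median -0.43).

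Mitochondrial iron and iron-sulfur cluster genes were divided, with 16 of 19 tested, 6 higher and 10 lower in cKO (median -0.18). Isca2, a cluster assembly factor, lay at 18.5, 20.3 and 76.3 CPM in cKO and 54.3 and 109 CPM in WT. Iba57, of the same machinery, had 0, 401 and 92 counts in cKO and none in WT, at least 105.5-fold higher by the same floor.

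Among NRF2 and antioxidant genes, 13 of 14 were tested, 7 higher and 6 lower in cKO (median 0.04), and Nqo1, a textbook NRF2 target, had no count. Txnrd1, thioredoxin reductase, lay at 155, 126 and 99.5 CPM in cKO and 84.5 and 74.4 CPM in WT, so the groups did not overlap. Its log2 fold change of 0.68 ± 0.40 (SE) did not pass (edgeR adjusted p = 0.999). Srxn1, sulfiredoxin, lay at 342, 237 and 211 CPM in cKO and 241 and 107 CPM in WT, and Keap1, which keeps NRF2 low, at 0, 9.28 and 0 CPM in cKO and 20.1 and 14.5 CPM in WT. edgeR called none of the 54 tested genes of these 5 lists, where 3 (5.56%) had an unadjusted p under 0.05 (Slc39a14, Slc46a1 and Fech), against 4.15% of all tested genes. DESeq2 called 2 of the 49 it gave an adjusted p (4.08%), against 2.12% of all genes it gave one.

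**Figure D5:**
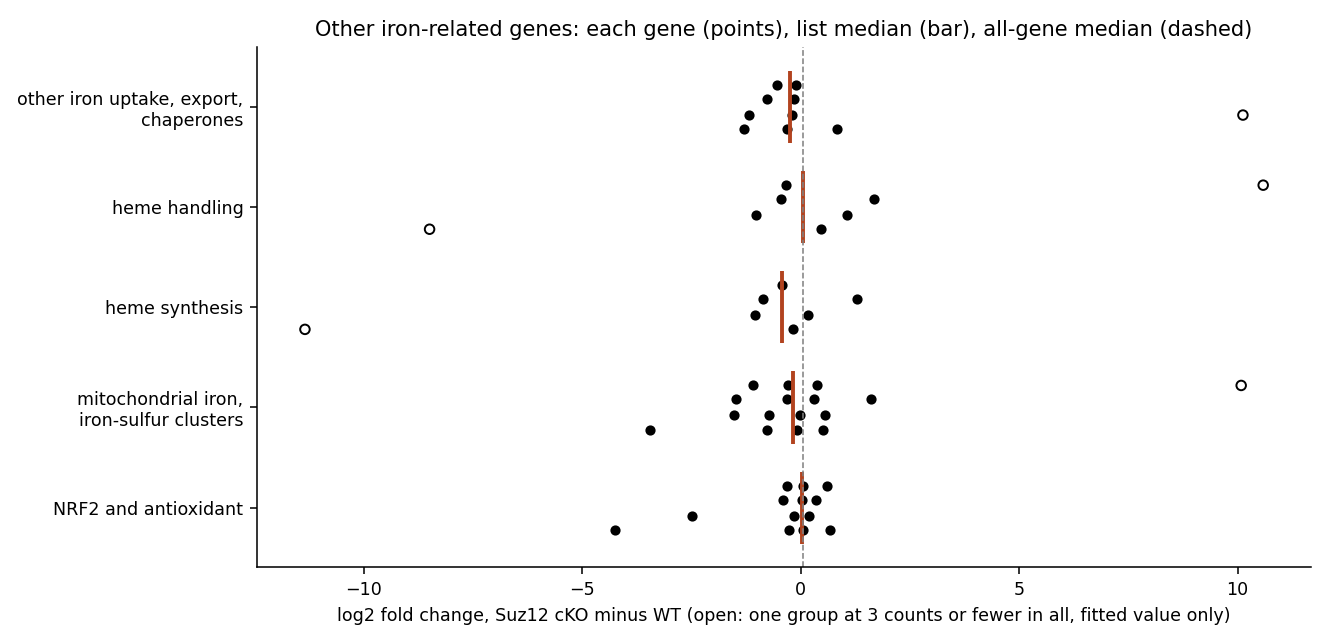
Fitted log2 fold change, Suz12 cKO minus WT, of each tested gene of the 5 wider lists, with the list median as a bar and the median of all tested genes, 0.06, as a dashed line. Open points are genes with 3 counts or fewer over 1 group, whose fitted value is no measured fold; most other genes lie within a few log2 units of 0.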

How the data were processed

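The authors deposited raw counts per gene identifier with gene lengths, as a table of the series and a file per sample, which held identical counts. The submitters' processing notes name featureCounts and mm10; for the aligner, the use of strand and reads shared by genes, nothing is stated in the sources used here. Symbols came from RefSeq (GRCm38.p6) for 25275 identifiers and GENCODE vM21 for 18; the 1886 others held 1.46% to 2.30% of counts and stayed in the fit.

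Groups follow the sample titles. The test was edgeR 4.0.16 in R 4.3.3 (filterByExpr, minimum count 10, TMM, robust quasi-likelihood F test, Benjamini-Hochberg over 9988 genes, threshold 0.05). Gene positions are those of RefSeq on GRCm38.p6, and RPKM was computed from CPM and the deposited lengths. Standard errors are the log2 fold change over the root of F. Alternatives used DESeq2 1.42.0, limma 3.58.1, other scalings and filters, a replicate block, the title style and each library left out; the fits were tested on simulated counts. Figures used matplotlib 3.10.9.

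The genes, lists and tests were chosen with earlier results of these data known. Named from each wider list were up to 3 genes with the smallest p and at least 5 CPM in the higher group; genes at 0 were named after their values were seen. Of the red cell list, 8 of 10 symbols matched. Some results under these rules are not reported here.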

Additional observations from a re-analysis of the deposited data

How the results depend on the processing

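The 10 iron genes gave 0 calls under the 17 alternatives, among those that each could test, and Aco1 had an unadjusted p of 0.0353 without cKO replicate 3. Over all genes, the count called was 0 with edgeR, 191 with DESeq2, 1 (Il10) with the replicate block, and 3 (Cxcl3, Gem and Il10) among genes averaging 50 CPM or more, a setting chosen after seeing the data, as was the sum of Ftl1 and Ftl1-ps2. Over the 5 wider lists, DESeq2 called 2 genes, Slc39a14 and Fech, in place of 0. The direction of Fth1, Tfrc, Hmox1, Aco1 and Ncoa4 was kept under each alternative that gave a value: Fth1 ranged from -0.40 to -0.16, Tfrc from -3.53 to -0.69, Hmox1 from 1.56 to 4.19, Aco1 from -8.29 to -1.24 and Ncoa4 from 0.43 to 1.92. For Fth1 and Hmox1 all cKO libraries lay on the same side of both WT libraries under each scaling. Their direction with other scalings or without single libraries was therefore largely fixed in advance. The Aco1 value of -8.29 is no measured fold, since cKO replicates 1 and 2 held 1 count each. Leaving out single libraries moved Ftl1 between -0.26 and 0.050, Slc11a2 between -2.27 and 2.67 and Ireb2 between -3.92 and 1.60. Slc11a2 also turned to 0.38 without the legacy setting of the fit and to 0.55 with the title style as a term; the cause was not tested. With the replicate block Fth1 was -0.40, Hmox1 2.50 and Ireb2 -5.40. Deviations of same-numbered libraries had correlations across genes of -0.027 and -0.025. With 2 WT libraries, this cannot decide whether the numbers pair the libraries. Depth limited values of a few counts: the exact counting interval of Tfrc in cKO replicate 3 ran from 0.0208 to 0.620 CPM, and that in WT replicate 1 from 29.01 to 34.12 CPM. Groups of 3 and 2 libraries are too small for the search for single deviating libraries, so no result was singled out that way.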

Other observations

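Hepcidin, encoded by Hamp, is the hormone that removes ferroportin from the cell surface, and is made chiefly by the liver. These libraries held 74, 135 and 0 counts of Hamp in cKO replicates 1 to 3 (4.63, 4.78 and 0 CPM), against 0 and 132 counts in WT replicates 1 and 2 (0 and 7.78 CPM). Both groups held a library at 0, and the log2 fold change of -0.31 ± 3.29 (SE) did not pass (edgeR adjusted p = 0.999). Its close paralog Hamp2 lay at 0.375, 0.637 and 0 CPM in cKO and 0 and 0.943 CPM in WT, in the same libraries, and reads may be shared between them. Heph, hephaestin, a ferroxidase that works beside ferroportin, had no count in cKO and WT replicate 1 and 75 counts in WT replicate 2, the library that also held all counts of Slc40a1. Ltf, lactoferrin, an iron-binding protein of neutrophil granules, had no count in cKO and WT replicate 2 and 69 counts in WT replicate 1. These genes were chosen after their values were seen.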
